A study of Polypedilum vanderplanki with 8 samples.

Results

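The broad open domains of Pv11 cells were taken as the ATAC-seq peaks of 3000 bp or more on chromosomes 1, 2 and 3. There were 446 of them among the 10998 peaks of these chromosomes and the 12035 peaks of the whole list, and the other 10552 peaks of these chromosomes are called narrower peaks here. The members were chosen by width, so their width, and everything that follows directly from it, is a description and not a finding. Pv11 is a cell line of the sleeping chironomid, Polypedilum vanderplanki, and can be dried and revived. Libraries were made by tagmentation of 75000 wild-type Pv11 cells each, either after 48 h in 600 mM trehalose, the sugar treatment that prepares the cells for drying (n = 3), or before that treatment, in normal culture (n = 3). The series also holds 1 MinION library for each of 2 transgenic clones, B2 and 4C, subcloned from the KH cell pool, which are not analysed here. The deposited peaks form 1 list for the experiment that names neither a library nor a condition. No value below therefore has replicates, no comparison of trehalose with normal culture was possible, and none of the differences between broad domains and narrower peaks could be tested over samples.

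In ATAC-seq, a transposase inserts sequencing adapters where DNA is not wrapped in nucleosomes, so that open chromatin collects reads and is called as a peak. A single promoter or enhancer usually gives a short peak, about the length freed when a nucleosome or a few of them are displaced. Stretches that remain accessible over several kilobases are less common, and in other animals they are known from clusters of enhancers, from strongly transcribed genes and from tightly packed groups of genes. No genes were placed on the peaks, because no source used here names the genome build of the list. Each peak carries an area, given by the caller Genrich. In that program the area is the significance above the calling threshold summed over the bases of the peak, so the area per bp is a mean excess of significance per base and not a count of reads. The summit is the place of highest significance within the peak. The depth behind the peaks is unknown, and intervals below are exact 95% intervals that cover counting error only (Clopper-Pearson for shares, order statistics for medians). They treat peaks as independent, although neighbouring peaks are not.

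Broad domains were 4.06% of the peaks of chromosomes 1 to 3 but held 23.0% of the called bases and 32.6% of the area. Their summed width was 2215915 bp, or 2.14% of the 3 chromosomes up to their last peaks, where all peaks together covered 9.30%. Their width had a median of 4159.5 bp (interval 4025 to 4385 bp), and the 75th and 90th percentiles were 5448.5 and 7589 bp. The less wide were the more numerous: 194 domains were 3000 to 3999 bp wide, 112 were 4000 to 4999 bp, 83 were 5000 to 6999 bp, 32 were 7000 to 9999 bp and 25 were 10 kb or wider. The number depends on how far the caller joined open stretches. No pair of peaks in the list was closer than 101 bp. When peaks at most 500 bp apart were joined before the width rule, 808 domains held 45.4% of the bases spanned. These spans include the gaps joined over, so this share and the 23.0% of called bases are not on equal terms.

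Chromosome 1 had 149 domains, chromosome 2 had 159 and chromosome 3 had 138. As a share of all peaks of the chromosome these were 3.71% (3.15% to 4.34%), 4.11% (3.51% to 4.78%) and 4.43% (3.74% to 5.21%), and the 3 intervals overlapped. Per Mb there were 4.04 domains on chromosome 1, 4.52 on chromosome 2 and 4.41 on chromosome 3, against 105, 105 and 95.1 narrower peaks per Mb. The chromosomes were close in median width as well, at 4157, 4275 and 4120 bp. The widest members were less evenly spread. Of the 25 domains of 10 kb or more, 12 were on chromosome 2, 7 on chromosome 1 and 6 on chromosome 3, and 8 of the 10 widest were on chromosome 2.

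The widest domain was 18126 bp long and ran on chromosome 1 from 21827538 to 21845663. Its area per bp was 5.93, below the median of the broad domains, and its summit lay 2424 bp from the nearer edge. On chromosome 2 the domain from 14357182 to 14374718 (17537 bp) had an area per bp of 5.09 and began 136191 bp after the peak before it, the longest gap on the left of any domain. The next, from 13131565 to 13148435 (16871 bp), had 6.59 per bp. The widest domain of chromosome 3, from 4456094 to 4472894 (16801 bp), had 8.85 per bp with peaks 119 and 129 bp away on its sides, while the nearest other broad domain was 238560 bp away. Width and strength were thus separate among these: the first 3 were below the median of 6.89 per bp for broad domains and the fourth was above it.

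The remaining 6 of the 10 widest were all on chromosome 2. The domain from 17577530 to 17593311 (15782 bp) had 6.22 per bp. Those from 35050452 to 35065336 (14885 bp) and from 2874221 to 2888707 (14487 bp) had 10.8 and 11.1 per bp. The domain from 1398129 to 1412531 (14403 bp) had 8.05 per bp and the highest summit -log10 q of these 10, 47.98. The domain from 11305567 to 11319239 (13673 bp) was the strongest of the 10 with 12.5 per bp, and the one from 12572239 to 12585713 (13475 bp) had 8.16 per bp. All 6 but the first exceeded the median of the broad domains.

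Area per bp was higher in broad domains than in narrower peaks, with medians of 6.89 (6.60 to 7.29) and 2.61 (2.56 to 2.66), a ratio of 2.64. Area and width come from the same calls, so this difference is described and not tested. The smallest total area in the list was 200.02, at whatever width. A narrow peak needs a higher area per bp than a wide one to reach such a total. Area per bp is therefore not on equal terms across widths, here and in the comparisons by width below. Of the 446 domains, 412 were above the median of the narrower peaks, or 92.4%, where 51.7% of all peaks of these chromosomes were. Most of the peaks of highest area per bp were narrower ones, however, as were most peaks. Of the 100 peaks of highest area per bp, 7 were domains, where 4.06% of all peaks of these chromosomes were. Of the 100 peaks of largest total area, 96 were domains, but total area is summed over the width that chose them. The highest area per bp was 24.3 in a domain and 30.6 in a narrower peak. At the summit the median -log10 q was 29.3 in broad domains and 7.72 in narrower peaks. Across width classes the area per bp climbed gradually: the medians were 2.09 for peaks of 100 to 499 bp, 2.72 for 500 to 999 bp, 4.25 for 1000 to 1999 bp and 5.48 for narrower peaks of 2000 bp or more, and then 6.38, 6.93, 7.01, 6.75 and 8.16 for the 5 classes of domains from the narrowest to the widest. Against narrower peaks of 2000 bp or more alone the ratio of medians was 1.26. Within the domains, width and area per bp were only loosely related (Spearman's rho 0.13 over 446 domains, which share 1 list and 1 threshold).

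**Figure D1:**
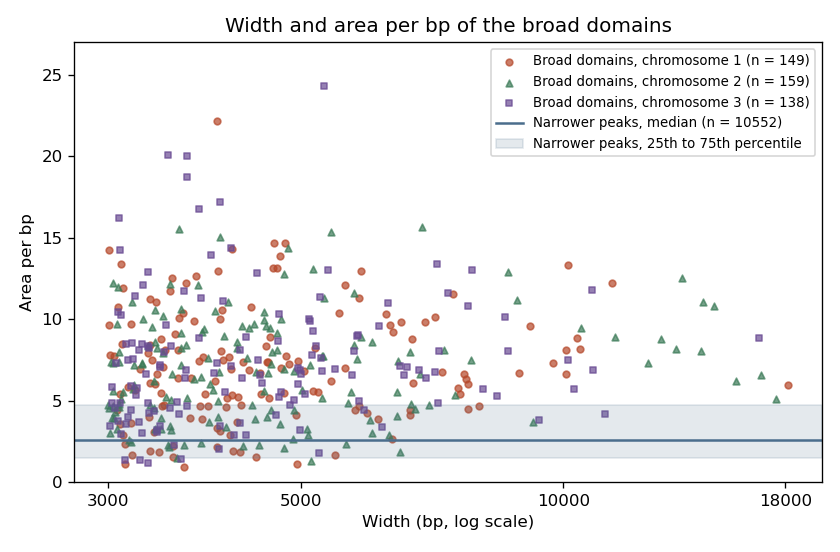
Width (bp, log scale) against area per bp for each of the 446 broad domains, by chromosome, with the median (line) and the 25th to 75th percentile (band) of the 10552 narrower peaks. Most domains lie above the line at 2.61, and the highest area per bp, 24.3, belongs to a domain of 5314 bp and not to one of the widest.

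The 5 domains of highest area per bp were all of moderate width, and 4 of them were on chromosome 3. The first, from 3355169 to 3360482 on chromosome 3 (5314 bp), had 24.3 per bp, a summit -log10 q of 52.2 and its summit only 403 bp from the start. The second was on chromosome 1 from 13132833 to 13136832 (4000 bp), with 22.2 per bp. On chromosome 3 the domain from 18791961 to 18795476 (3516 bp) had 20.1 per bp, and its neighbour from 18788111 to 18791800 (3690 bp), 160 bp away, had 18.7. The domain from 19164167 to 19167855 (3689 bp), also on chromosome 3, had 20.01 per bp. None of the 5 was among the 10 widest.

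At the other end, wide stretches of low area per bp were also called. The lowest area per bp was 0.90, in the domain from 6119335 to 6122995 on chromosome 1 (3661 bp), the only domain below 1 per bp. Chromosome 1 also held the domains from 3886484 to 3889617 (3134 bp, 1.12 per bp) and from 35244239 to 35249180 (4942 bp, 1.13 per bp). The fourth was on chromosome 3 from 27965487 to 27968817 (3331 bp, 1.17 per bp) and the fifth on chromosome 2 from 14094760 to 14099893 (5134 bp, 1.28 per bp). In all, 34 domains were below the median of the narrower peaks, a comparison between unlike widths that has the limit given above. At the width limit, the 37 domains of 3000 to 3099 bp had a median area per bp of 5.61, and the 28 peaks of 2900 bp or more under the limit had 5.28. The median gap to the nearest peak was 256 bp in these domains and 414.5 bp in these narrower peaks. The members nearest the limit were 3000, 3003 and 3005 bp wide, with 4.74, 4.57 and 9.64 per bp, and the peaks just under it were 2993, 2987 and 2981 bp wide, with 2.15, 5.09 and 2.48 per bp.

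The peaks next to a broad domain were themselves broad more often than the peaks next to a narrower one. Of the 892 places directly before or after a domain, 100 held another domain, or 11.2% (9.22% to 13.5%). Of the 21098 places beside a narrower peak, 792 held a domain, or 3.75% (3.50% to 4.02%). One peak can fill 2 places, and the 100 are 50 pairs of neighbouring domains counted from both sides. The interval for domains is therefore too narrow. Over all neighbours of all peaks the share was 4.06%. The share in domains exceeded that in narrower peaks on each chromosome, with 14.8% against 3.29% on chromosome 1, 6.92% against 3.99% on chromosome 2 and 12.3% against 4.07% on chromosome 3. Chromosome 2, which has the most of the widest domains, thus had the smallest excess. By width the share was 2.83% beside peaks of 100 to 499 bp and 6.12% beside narrower peaks of 2000 bp or more. It was 10.3%, 8.48%, 14.5%, 10.9% and 20% beside the 5 classes of domains from the narrowest to the widest, so the climb was uneven.

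**Figure D2:**
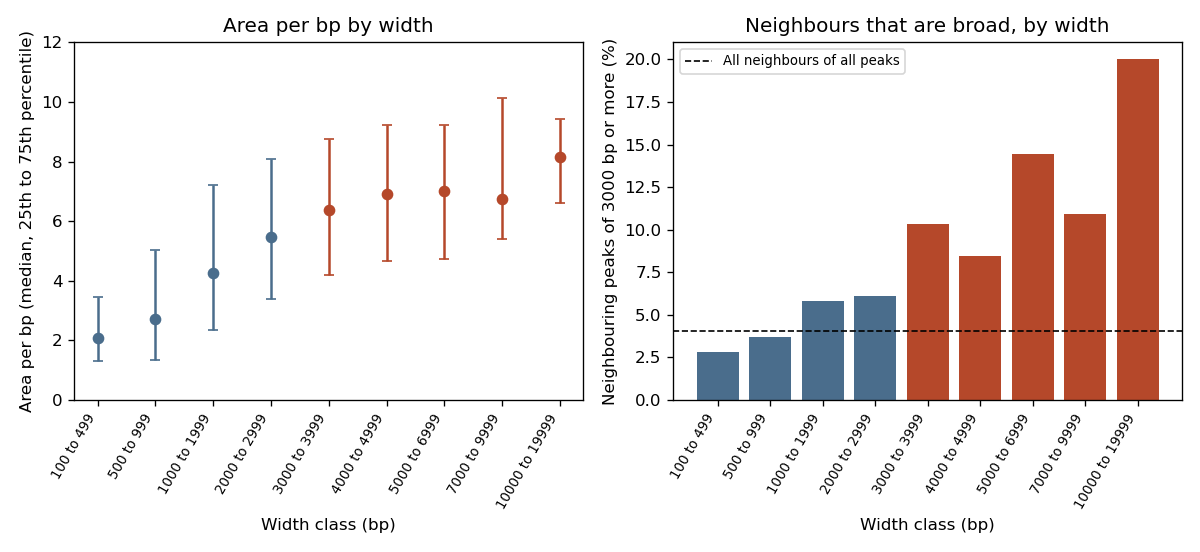
Left, area per bp by width class (bp), as the median with the 25th to 75th percentile; right, the share of neighbouring peaks that are 3000 bp or wider, by the same classes, with the share over all peaks as a dashed line at 4.06%. Broad domains are in red and narrower peaks in blue, and both measures are higher in domains than in narrower peaks, though not in steady steps, with medians of 2.09 in the narrowest class and 8.16 in the widest.

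The broad neighbours formed 38 runs of 2 domains and 6 runs of 3 with no narrower peak between them, and the other 352 domains stood singly. Within these runs there were 50 pairs of neighbouring domains, 32 of them with a gap of at most 500 bp. The median gap was 322.5 bp, with quartiles of 174 and 806 bp, and the longest was 9797 bp. The closest pairs were 101 bp apart on chromosome 3, between 20976167 and 20984363, and 101 bp apart on chromosome 2, between 15283904 and 15294664. The third closest pair, on chromosome 2 from 34204975 to 34217140, was 104 bp apart. The members of these pairs could differ widely in strength: area per bp was 5.05 and 8.56 in the first pair, 8.0 and 3.02 in the second, and 11.6 and 2.87 in the third. Over the 50 pairs, the area per bp of partners was nearly unrelated (Spearman's rho 0.07).

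The longest run was on chromosome 1, from 21811352 to 21845663, where 3 domains of 5158, 10075 and 18126 bp, the last of them the widest of all, left only 748 and 205 bp between them. Peaks covered 33359 of its 34312 bp. The 3 domains were much alike, with 5.62, 6.62 and 5.93 per bp and a summit -log10 q of 20.8, 20.7 and 20.1, close to the 25th percentile of the domains (20.7). In the 20 kb on each side of the widest, 84.2% of the bases were inside other peaks, the highest share of any domain. The second run, on chromosome 3 from 3344016 to 3364188, was of another kind. Its domains of 10797, 5314 and 3221 bp had 11.8, 24.3 and 11.4 per bp, so that the most intense domain of the list stood between others that were themselves strong. The first 2 had their summits close to the edge that they share, 337 bp before the end of one and 403 bp after the start of the other. The third run, on chromosome 1 from 32030895 to 32050185, had domains of 8890, 3809 and 4787 bp with 6.69, 7.45 and 14.7 per bp.

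The grouping extended beyond direct neighbours. The median distance from a domain to the nearest other domain was 20737 bp (14390 to 29826 bp), while the median distance from a narrower peak to the nearest domain was 67184 bp (64531 to 70080 bp). Linking domains at most 10 kb apart left 260 singly and put 186 domains, or 41.7%, into 77 groups of up to 5. Linking at 50 kb put 284, or 63.7%, into 106 groups of up to 7. No such share was computed for other peaks, so the 2 linked shares do not by themselves measure grouping. The 25th percentile of the distance to the nearest domain was 2420 bp from domains and 16238 bp from narrower peaks. The largest groups of 5 at 10 kb spanned 51741 bp on chromosome 1 from 21805585, around the longest run, 43420 bp on chromosome 1 from 1328509 and 41275 bp on chromosome 2 from 3597009. The group of 7 was on chromosome 3, from 19164167 to 19339871.

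Narrower peaks also lay close to the domains. The median gap to the nearest peak was 227.5 bp (202 to 256 bp) for broad domains and 505.5 bp (483 to 529 bp) for narrower peaks, and the median gap on the farther side was 1519.5 and 4405 bp. Narrower peaks of 2000 bp or more were close to the domains, with a median of 277 bp to the nearest peak (231 to 328 bp), an interval that overlaps that of the domains. Against all narrower peaks of 1000 bp or more the difference was -121.5 bp, where it was -278 bp against all narrower peaks. The nearest peak was at most 500 bp away for 321 domains, or 72.0% (67.6% to 76.1%), against 49.8% (48.8% to 50.7%) of narrower peaks and 50.7% of all peaks. Gaps were short on both sides alike, with medians of 553.5 bp before and 524.5 bp after a domain. Both gaps were at most 500 bp for 104 domains (23.3%) and for 10.4% of narrower peaks. Few domains stood apart from other peaks: 3 of 446 (0.67%) had both gaps above 10 kb, against 6.67% of narrower peaks. These gaps are between edges. Between summits the order was the opposite. The median distance to the nearer neighbouring summit was 2792.5 bp for domains and 1430 bp for narrower peaks. Such a distance also includes the way from each summit to an edge of its peak. The nearer edge was a median of 1210.5 bp from the summit in domains and 147 bp in narrower peaks. How far this accounts for the opposite order was not tested.

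The peaks beside the domains differed from other narrower peaks more in width than in area per bp. The 352 narrower peaks at most 500 bp from a domain had a median width of 871 bp and a median area per bp of 2.23 (25th percentile 1.15, 75th percentile 4.69). For the 4900 that had only another narrower peak within 500 bp these were 548 bp and 2.58, and for the 5300 with no peak within 500 bp they were 458 bp and 2.66. The side peaks were therefore wider than other narrower peaks, with a lower median area per bp. All peaks of 500 to 999 bp had a median of 2.72 per bp, and no comparison at equal width was made.

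In the first 2 kb from the edge of a domain, 40.4% of bases were inside another peak, against 22.6% at the edge of a narrower peak. The excess faded with distance, from 27.2% and 18.1% at 8 to 10 kb to 18.9% and 14.5% at 18 to 20 kb, and at 48 to 50 kb the shares were 10.7% and 11.0%, with 9.30% over the whole of the 3 chromosomes. Within 20 kb on both sides a domain had a median of 10 other peaks and a narrower peak had 8, while the share of bases inside other peaks had medians of 25.5% and 15.6%. The number of peaks around domains was thus only a little higher, and the covered share differed more. Width was hardly related to the fullness of the surroundings (Spearman's rho 0.04 between width and covered share, over 446 domains).

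**Figure D3:**
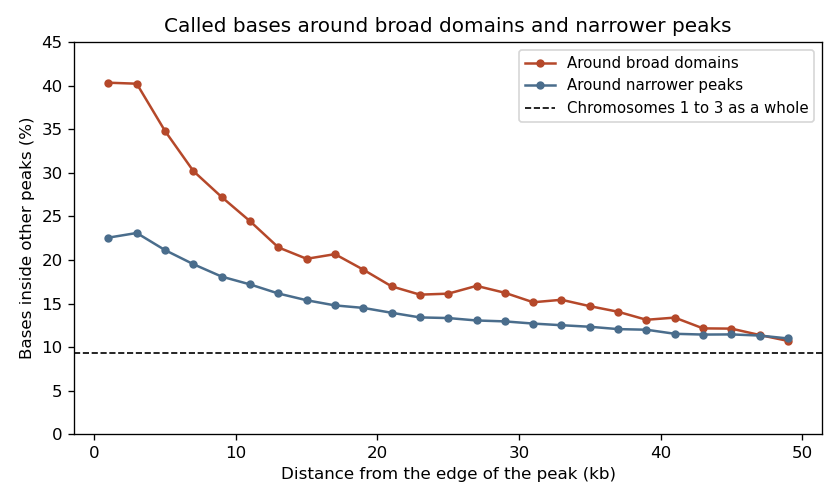
Share of bases inside other peaks (%) in steps of 2 kb, by distance from the edge of the peak (kb), on both sides pooled, around the broad domains and around the narrower peaks of chromosomes 1 to 3, with the share over the 3 chromosomes as a dashed line. The share is 40.4% beside domains and 22.6% beside narrower peaks, and the curves meet near 50 kb.

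Each chromosome was cut into 10 equal parts, and domains were found in all of them. On chromosome 1 the lowest number was 7, in part 5, and the highest 21, in part 10. On chromosome 2 the numbers were between 12 and 22, and on chromosome 3 between 6, in part 4, and 29, in part 7. As a share of the peaks of the same part, the lowest was 1.53% in part 5 of chromosome 1, where narrower peaks were many (450), and the highest were 6.87% and 6.84% in parts 3 and 7 of chromosome 3. Neither the ends nor the middle stood out on all 3 chromosomes.

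**Figure D4:**
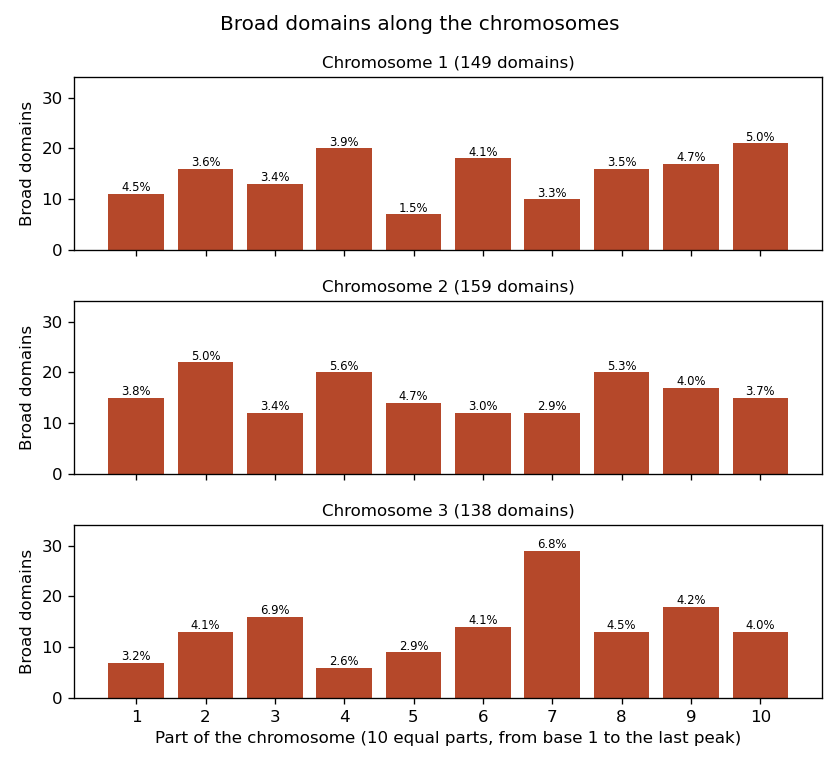
Number of broad domains in 10 equal parts of chromosomes 1, 2 and 3, from base 1 to the last peak, with their share of all peaks of that part (%) above the bar. Domains occur in every part, from 6 to 29 of them, with the most in part 7 of chromosome 3.

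In 105 windows of 1 Mb there was a median of 4 domains, with at most 11, and 6 windows had none. The densest windows were from 34000001 to 35000000 on chromosome 1 and from 21000001 to 22000000 on chromosome 3, with 11 domains each, and from 19000001 to 20000000 on chromosome 3, with 10. They held 166, 104 and 150 narrower peaks, where the median window had 100. The 10 windows richest in domains held 90 domains, or 20.2% (16.6% to 24.2%), and the 10 richest in narrower peaks held 14.9% of those. Domains are far fewer, and small counts vary more between windows, so these shares are not on equal terms. Windows with more domains tended to have more narrower peaks (Pearson's r 0.41 and Spearman's rho 0.39 over 102 full windows, all from the same list).

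The longest stretches without a domain were 1929730 bp on chromosome 3 from 9877266 to 11806995, with 114 narrower peaks, 1668213 bp on chromosome 1 from 16903339 to 18571551, with 214, and 1523527 bp on chromosome 2 from 32175816 to 33699342, with 154. These were 59.1, 128 and 101 narrower peaks per Mb, where chromosomes 1 to 3 as a whole had 102, so that stretches without a domain were not stretches without peaks. The domains farthest from another were one on chromosome 3 from 247073 to 253358 (6286 bp), the first of its chromosome, with 1229332 bp to the next, and 2 on chromosome 1, from 25667589 to 25674306 (758750 bp from the next) and from 36552969 to 36556584 (713634 bp). Their area per bp was 11.0, 6.06 and 10.1, and each had a narrower peak close by, at 232, 101 and 259 bp. In the 20 kb on each side, 7.83%, 24.4% and 21.3% of bases were inside other peaks, where the median was 25.5% for domains and 15.6% for narrower peaks. All 3 thus had a peak close by, but the surroundings of the first were sparse.

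The summit was less central in broad domains. With its place measured from 0 at an edge to 0.5 at the midpoint, the median was 0.28 (0.26 to 0.30) in domains and 0.34 (0.34 to 0.34) in narrower peaks. It lay within 20% of the width from an edge in 129 domains, or 28.9% (24.8% to 33.4%), against 16.5% (15.8% to 17.3%) of narrower peaks and 17% of all peaks. Narrower peaks of 2000 bp or more were close to the domains, with a median place of 0.30 (0.29 to 0.32) and 25.1% (21.3% to 29.3%) near an edge. Both intervals overlap those of the domains. The smallest narrower peaks had the most central summits, at a median of 0.36 for 100 to 499 bp, where the summit was a median of 90 bp from the nearer edge. By chromosome the medians of domains and narrower peaks were 0.31 and 0.34 on chromosome 1, 0.27 and 0.34 on chromosome 2 and 0.28 and 0.34 on chromosome 3.

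**Figure D5:**
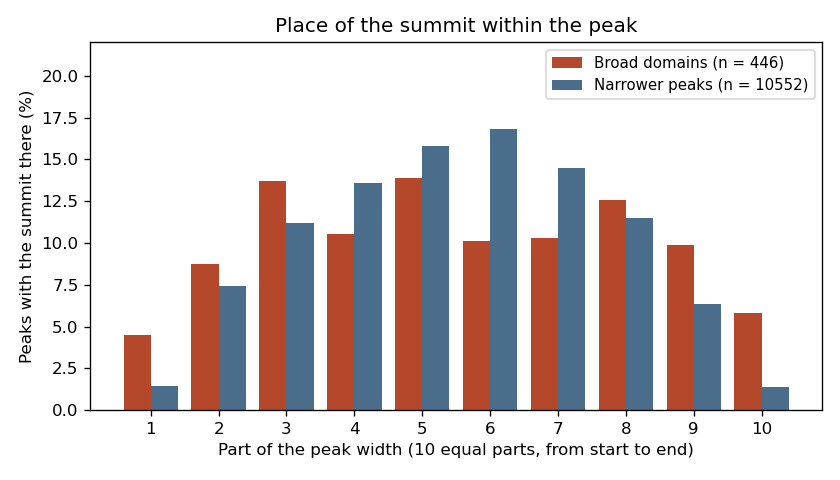
Share of peaks (%) with the summit in each of 10 equal parts of the peak width, from start to end, for the 446 broad domains and the 10552 narrower peaks. Narrower peaks are highest in the middle, with 16.8% in part 6, whereas the domains are spread more evenly, with 4.48% in part 1 and 5.83% in part 10, against 1.41% and 1.36% of narrower peaks.

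The summit had no preferred side. It was left of the midpoint in 229 of 446 domains, or 51.3% (46.6% to 56.1%), and on the side of the nearer neighbouring peak in 236, or 52.9% (48.2% to 57.6%), against 52.3% of narrower peaks. As a share of their width, the domains with the summit nearest an edge were one of 8890 bp on chromosome 1 from 32030895, the first of the third run above, with the summit 159 bp from its start, the one of 10797 bp on chromosome 3 from 3344016 with the summit 337 bp from its end, and the one of 14487 bp on chromosome 2 from 2874221 with the summit 504 bp from its start. In bp, other and less wide domains had the summit closer to an edge, down to 130 bp in one of 3411 bp. The place of the summit was hardly related to width within the domains (Spearman's rho -0.05).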

How the data were processed

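ATAC-seq libraries from Pv11 cells after trehalose (n = 3) and in normal culture (n = 3) were sequenced by the authors. The submitters' processing notes name CASAVA, Bowtie2 2.3.4.3, SAMtools, Picard and Genrich 0.6. Peaks were called by the authors with options, filters, read shift, genome build and contributing libraries not given in the sources used here. Deposited by the authors was 1 list with 10 columns and no header, without replicates. Of its columns, the signal deposited by the authors is the area of each peak, the deposited score is derived from it, and the deposited -log10 q refers to the summit. The -log10 p was not used. Read depth is unknown, and a single peak therefore has no error.

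Width was the end minus the start, and positions are printed from base 1. Gaps were taken between edges on the same chromosome, and the end of the last peak stood for the length of a chromosome. Python 3.11.15, numpy 2.4.6, pandas 2.3.3, scipy 1.17.1 and matplotlib 3.10.9 were used, and the functions were tested on simulated data. The members, the comparisons and the rules were chosen with earlier results of these data known. Regions named are the 10 widest, the 5 highest and 5 lowest in area per bp, the 3 longest runs, closest pairs, most distant domains, longest stretches without a domain, densest windows and most lateral summits, and those next to the width limit. A low or high width limit, each chromosome alone, stronger peaks alone, joined peaks and other windows were tried as alternatives. Planned work on GC content was not run, since no genome sequence was used here. Planned work on genes was not run because the sources used here do not name the genome build of the list.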

Additional observations from a re-analysis of the deposited data

How the results depend on the processing

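Of 47 alternative values of the comparisons between broad domains and narrower peaks, 46 kept the direction, and 32 of 63 alternative values in all stayed within the interval of the main value (within 1.5 times for counts and covered shares). The median distance to the nearest peak turned round when taken between summits. It was then 1362.5 bp more in domains than in narrower peaks, against 278 bp less between edges. A distance between summits also includes the way from each summit to an edge of its peak, and its part in the reversal was not tested.

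With limits of 2000, 4000 and 5000 bp there were 920, 252 and 140 domains, and the share of broad neighbours was 15.8%, 7.94% and 7.14%. Beside narrower peaks that share fell as well, to 7.69%, 2.16% and 1.20%, and it was below that of domains at each limit. Domains held 34.9% of called bases at 2000 bp and 11.0% at 5000 bp, and the difference in area per bp was 3.66 at 2000 bp. At 5000 bp the densest 10% of windows held 27.1% of domains, against 14.8% of narrower peaks in their own densest windows. The chromosomes alone gave 149, 159 and 138 domains. Broad neighbours were 14.8% on chromosome 1 (3.29% beside narrower peaks) and 6.92% on chromosome 2 (3.99%). The difference in summit place was -0.0254 and -0.0778 on these chromosomes. The densest windows of chromosome 2 held 15.7% of its domains, against 12.2% for narrower peaks. In the upper 50% of peaks by -log10 q, which kept 433 domains, broad neighbours were 16.4% beside domains and 7.15% beside narrower peaks. The gap differed by -1107 bp there and the area per bp by 2.13. With peaks at most 500 bp apart joined, 808 domains held 45.4% of the joined spans, which include the gaps joined over. Broad neighbours were then 17.1% beside domains and 9.85% beside narrower peaks. The gap differed by -753 bp and the area per bp by 2.34, with gap bases counted in the widths. Against narrower peaks of 1000 bp or more alone, the gap differed by -121.5 bp, the area per bp by 2.43 and the summit place by -0.0252. With windows of 500 kb, the densest 10% held 26.0% of domains, against 16.7% of narrower peaks in their own densest windows. Joining removes every gap of 500 bp or less by construction. The cause of these shifts was not tested for any setting.

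No paired analysis was possible because the peaks name no library, and none was left out for the same reason. The GC content and genes of the domains were not run.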

Other observations

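Peaks of 3000 bp or more were scarce outside chromosomes 1 to 3. Chromosome 4 had 2 among 968 peaks, or 0.21% (exact Clopper-Pearson 95% interval 0.025% to 0.74%, counting error only), where chromosomes 1 to 3 had 4.06% (3.69% to 4.44%). The median width of all peaks was 369 bp on chromosome 4 and 535 bp on chromosomes 1 to 3. The 2 domains of chromosome 4 ran from 8523773 to 8527404 (3632 bp, 6.68 per bp) and from 13801925 to 13805299 (3375 bp, 11.3 per bp). Both had peaks at most 500 bp away on each side, at 436 and 202 bp for the first and at 500 and 151 bp for the second. Of the 69 peaks on unplaced scaffolds none reached 3000 bp, which allows a share of up to 4.35% at 3 counts and of up to 5.21% by the exact interval used above, and the widest had 2086 bp, on scaffold 5.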
